A study of Homo sapiens with 8 samples.

Results

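H3K4me2 regions that were narrower after knockdown of LSD1 were examined in RD cells, an established line from an embryonal rhabdomyosarcoma, a childhood tumour of the muscle lineage. The mark is dimethylation of lysine 4 of histone H3, mapped by chromatin immunoprecipitation and sequencing (ChIP-seq). The 4 ChIP libraries were 2 from cells transfected with siRNA against LSD1 (siLSD1) and 2 from cells transfected with a control siRNA (siCtrl). All were harvested 96 hours after transfection, and 4 input libraries of the series were not analysed here. A single siRNA construct targeted LSD1, the line is 1 tumour's cells, and LSD1 levels were not among the measurements. The submitters call the replicates biological. Joining peaks of the 4 libraries on chromosomes 1 to 22 and X wherever they shared 1 bp or more gave 58952 regions, of which 26653 had a peak in every library and are called common. A common region was taken as narrowed when the higher covered length of the siLSD1 libraries was at most 0.85 times the lower covered length of the siCtrl libraries. Covered length is the number of base pairs of the region under that library's deposited peaks. This gave 411 narrowed regions, or 1.54% of common regions. The covered lengths of these libraries chose the regions, so the difference between siLSD1 and siCtrl in them is a description and was not tested.

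Dimethylated lysine 4 marks active and poised promoters and enhancers, usually as a broad zone on both sides of the site where transcription factors bind. LSD1, the product of KDM1A, is a flavin-dependent demethylase that acts on the mono- and dimethylated forms of this lysine, often as part of the CoREST complex together with histone deacetylases. The siLSD1 lists held more peaks and covered more sequence than the siCtrl lists, so narrowed regions run against the general direction of these lists. There were 50587 and 49611 siLSD1 peaks over 96.9 and 104 Mb, against 33878 and 44831 siCtrl peaks over 70.1 and 94.1 Mb. Single peaks were not longer as a whole, with a median width of 1575 and 1700 bp in the siLSD1 lists, against 1753 and 1690 bp in the siCtrl lists. The shortest list, that of siCtrl replicate 1, stood apart from the others. Over common regions siCtrl replicate 2 covered 74.4 Mb, more than the 73.0 Mb of siLSD1 replicate 1. The median log2 change in covered length over common regions was 0.0796, and 0.000232 without siCtrl replicate 1. Within common regions the general direction thus rested on that library. The lists carry no read counts, so the depth behind a peak is unknown. Without an hg19 gene annotation at hand, regions are named by coordinates (hg19, counted from 1) and cytoband, and gene content and sequence were not analysed here. The identity of the cells could not be checked against marker genes for the same reason.

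The narrowed regions were of ordinary size and kept most of their marked sequence. Their median covered length was 1672 and 1713 bp in siLSD1 replicates 1 and 2, against 2535 and 2591 bp in siCtrl replicates 1 and 2. For common regions as a whole the median was 2383 and 2525 bp in the siLSD1 libraries, against 2125 and 2427 bp in the siCtrl libraries. The narrowed regions were thus broader than the common median in both siCtrl libraries and below it in both siLSD1 libraries. Summed over the 411 regions, peaks covered 0.841 Mb in each siLSD1 library, against 1.26 and 1.27 Mb in siCtrl replicates 1 and 2. The merged regions had a median width of 2782 bp (quartiles 2080.5 and 4149 bp), close to the 2789 bp of all common regions.

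The ratio of the higher siLSD1 to the lower siCtrl length had a median of 0.781 in narrowed regions and ran from 0.324 to 0.8497, while its median over all common regions was 1.197. The drop, meaning the lower siCtrl length minus the higher siLSD1 length, had a median of 604 bp with quartiles of 382 and 888.5 bp. It reached 500 bp in 254 regions (61.8%), 1000 bp in 84 (20.4%), 2000 bp in 14 (3.41%) and 3000 bp in 5 (1.22%). In 4 regions the ratio was at most 0.5. The 2 siLSD1 libraries differed by a median of 158 bp and the 2 siCtrl libraries by 206 bp, against 234 and 280 bp over all common regions. The drop exceeded the larger of both differences in 322 of 411 regions (78.3%), which is a description, since the rule selected on the drop.

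**Figure D1:**
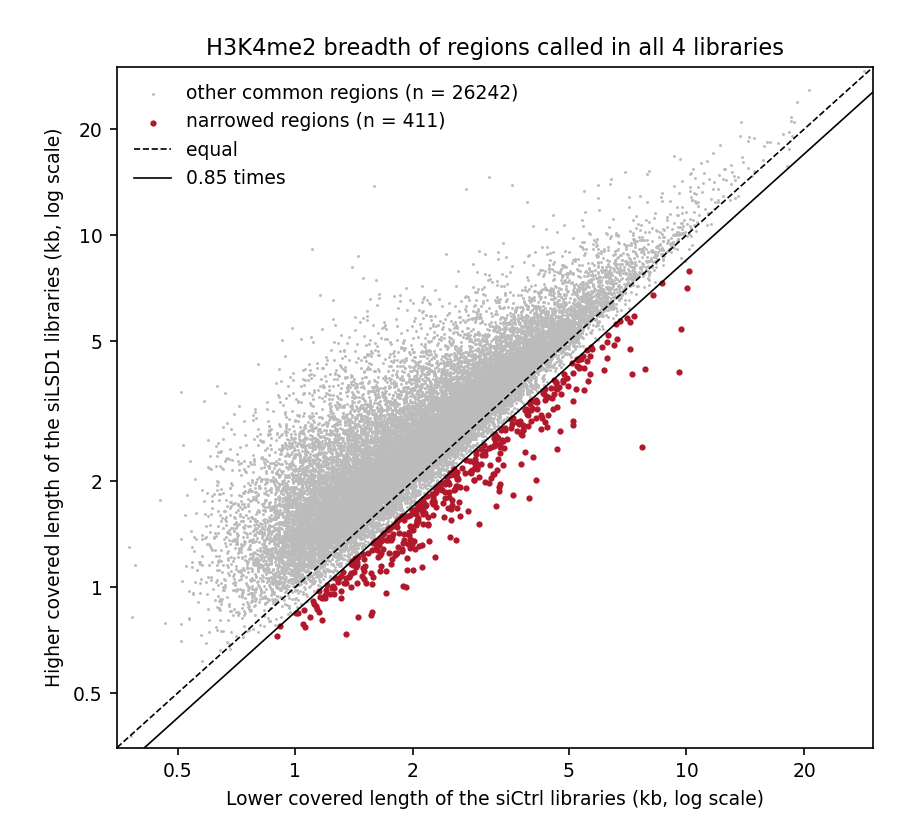
Each point is 1 common region, with the higher covered length of the 2 siLSD1 libraries on the vertical axis and the lower covered length of the 2 siCtrl libraries on the horizontal axis (kb, both log scales). The dashed line marks equal lengths, and the 411 narrowed regions in red lie on or below the solid line at 0.85 times.

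The region of largest drop lay in 1q31.2, at chr1:192526054-192536393. It had 4083 and 3790 bp under peaks in siLSD1 replicates 1 and 2, against 9683 and 9550 bp in siCtrl replicates 1 and 2. That is 3.94 ± 0.207 kb after siLSD1 and 9.62 ± 0.0940 kb after siCtrl (SD, n = 2 each). At the high-coordinate end 3754 bp lay under siCtrl peaks of both libraries and beyond the last siLSD1 peak, and siLSD1 replicate 1 had a second, short peak where replicate 2 had none. The ratio of this region was 0.4275, and 0.618 with gaps of up to 1000 bp merged.

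The smallest ratio, 0.324, was found in 9q21.33 at chr9:89159583-89168066. Here 2498 and 2495 bp were covered in the siLSD1 libraries, against 7707 and 7798 bp in the siCtrl libraries. The mark was shorter on both sides, with 2600 bp at the low-coordinate end and 1419 bp at the high-coordinate end under peaks of both siCtrl libraries and of neither siLSD1 library. With equal numbers of peaks per list its ratio was 0.568, above the 0.397 of 1q31.2 and the 0.4415 of a region in 20q13.31, so its place as the smallest rests on the full lists. With all peaks, 1q31.2 and 9q21.33 were the only regions with a drop above 5 kb.

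A region of 15q25.3, at chr15:85359541-85367678, held high-scoring peaks in every library and still covered about 4 kb less after siLSD1. It had 4154 and 4047 bp in the siLSD1 libraries, against 7853 and 7952 bp in the siCtrl libraries. Both siCtrl libraries had 2 peaks there and both siLSD1 libraries had 1. Of the 3513 bp covered in both siCtrl libraries and in neither siLSD1 library, 3459 bp lay at the high-coordinate end, where the second siCtrl peak stood. Its peak score, the authors' value for each peak, ranked at percentiles 97.9 and 95.9 of the siLSD1 lists and 97.9 and 95.7 of the siCtrl lists. Where a library had 2 peaks in a region, the higher score was taken.

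In 1q22, at chr1:156457585-156465032, each library had a single peak. It covered 3807 and 4023 bp after siLSD1 and 7255 and 7448 bp after siCtrl, and 2871 bp of the difference lay at the high-coordinate end. With gaps of up to 1000 bp merged, the ratio of the 1q22 region was 0.827, against 0.5545 in the main setting. The size of its drop thus depends on where the region was taken to end. In 20q13.31, at chr20:54996252-55006913, 5400 and 4950 bp were covered after siLSD1, against 9712 and 10662 bp after siCtrl. Of the bases missing from both siLSD1 libraries there, 2477 bp lay between the outer siLSD1 peak ends and 1458 bp beyond the high-coordinate one. The region of 1p34.2, at chr1:40095991-40106610, opened in the middle and was 656 bp shorter at the low-coordinate end. Each siCtrl library covered it with 1 peak, of 10015 and 10443 bp, and each siLSD1 library with 2 peaks, which added to 7093 and 6064 bp. Both siLSD1 libraries left a gap near the centre, where 1924 bp carried a peak in both siCtrl libraries only.

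**Figure D2:**
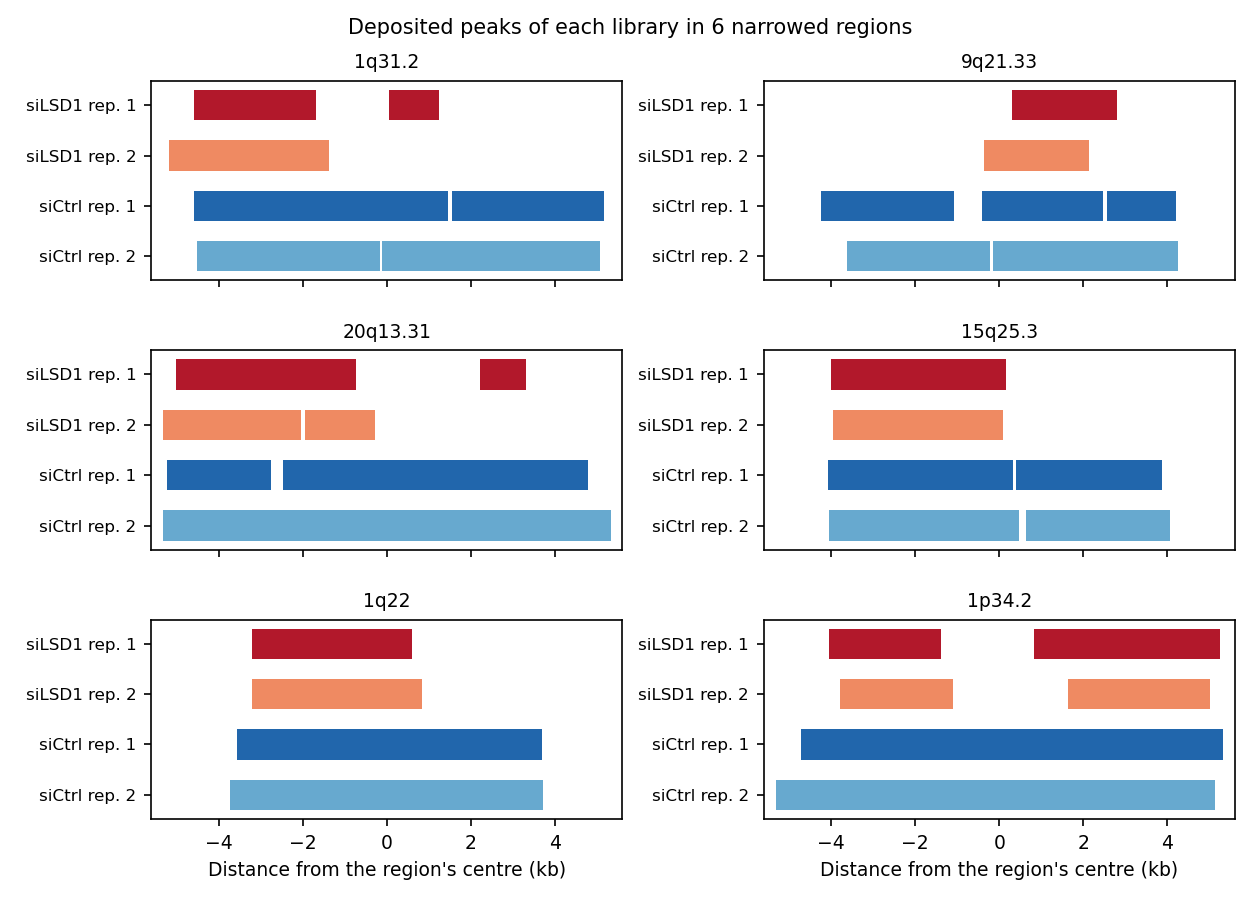
Bars are the deposited peaks of each library (rows) in the 6 narrowed regions of largest drop, drawn to scale by distance from the region's centre (kb). In 15q25.3 and 1q22 the siLSD1 peaks end near the centre while the siCtrl peaks go on for over 2 kb, and in 1p34.2 both siLSD1 libraries have a gap where the siCtrl peaks are continuous.

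The other regions of large drop were of the same kinds. In 10q11.23, chr10:50316876-50324420 had 3527 and 4743 bp after siLSD1, against 7247 and 7158 bp after siCtrl, with 1490 bp missing inside. In 2q37.1, chr2:233437273-233443250 had 2880 and 1927 bp after siLSD1, against 5944 and 5115 bp after siCtrl, all of the 2393 bp missing at the high-coordinate end. The replicates of 1 siRNA differed by about 1 kb in 10q11.23 after siLSD1 and in 2q37.1 after both siRNAs, which is below the drops of 2415 and 2235 bp. In 15q14, chr15:34867608-34878019 had 7921 and 6079 bp after siLSD1, against 10327 and 10144 bp after siCtrl. In 20p13, chr20:824466-829384 had 2469 and 1675 bp after siLSD1, against 4812 and 4660 bp after siCtrl, and here too 2145 bp were missing at the high-coordinate end alone.

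Several narrower regions also had small ratios. In 20q11.22, chr20:32414933-32418985 had 1787 and 1662 bp after siLSD1, against 3968 and 3949 bp after siCtrl, under peaks that ranked low in all lists but that of siCtrl replicate 2. In 2p25.1, chr2:11051072-11055623 had 2017 and 2016 bp after siLSD1, against 4144 and 4121 bp after siCtrl. With equal numbers of peaks per list the ratio of this 2p25.1 region was 0.744, against 0.489 with all peaks. Further ratios from 0.506 to 0.529 were found in 12p13.32 (chr12:4224539-4228301), 1q24.3 (chr1:172421007-172424367), 2q22.1 (chr2:139499167-139503309), Xp22.31 (chrX:7894487-7896484) and 18q11.2 (chr18:20512455-20515209). With equal numbers of peaks per list, the regions of 20q11.22, 12p13.32, 1q24.3 and Xp22.31 were no longer common, so their ratios rest on the full lists. The 2q22.1 region had 1699 and 1640 bp after siLSD1 and 3925 and 3260 bp after siCtrl. With equal numbers of peaks per list its ratio was 1.123, so its direction turned when low-scoring peaks were left out.

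The other narrowed regions of highest score had ratios from 0.700 to 0.847. In 7p22.3, chr7:190277-197041 ranked at percentile 98.85 or above in every list and had 5592 and 5372 bp after siLSD1, against 6599 and 6765 bp after siCtrl. In 19p13.3, chr19:1852465-1858728 had 4340 and 4443 bp after siLSD1, against 6264 and 5380 bp after siCtrl. In 7q22.1, chr7:101003741-101008553 had 3198 and 3095 bp after siLSD1, against 4571 and 4813 bp after siCtrl, with 1191 bp missing at the low-coordinate end. Regions of 17q21.31 (chr17:42182707-42190541) and 1p12 (chr1:119524967-119533107) had ratios of 0.842 and 0.801. Each of these high-scoring regions was covered by 1 peak in every library, apart from 17q21.31, where siCtrl replicate 1 had 2. Both remaining regions among the broadest in siCtrl scored high as well. In 7q34, chr7:138658245-138667585 had 7333 and 7162 bp after siLSD1, against 8660 and 9052 bp after siCtrl. In 1q23.3, chr1:161987657-161996034 had 6747 and 6721 bp after siLSD1, against 8292 and 8223 bp after siCtrl.

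At the threshold the siRNA groups lay close together. The member nearest to it was in 7p14.1, at chr7:37486629-37489368, with 2165 and 2135 bp after siLSD1, against 2620 and 2548 bp after siCtrl, a ratio of 0.8497. The next were in 9q21.33 at chr9:89238891-89241014 (0.8494) and in 10q24.32 at chr10:103997551-104002874 (0.8493). Just outside were regions of 12q21.33 at chr12:90458308-90459623 (0.8502), 9q22.2 at chr9:92691035-92693700 (0.8503) and 16q12.2 at chr16:53162914-53166837 (0.8506). The 12q21.33 region had 928 and 1050 bp after siLSD1, against 1297 and 1235 bp after siCtrl.

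Most of the missing sequence lay at the ends of the regions, and usually at 1 end. In all, 268 kb of narrowed regions lay under peaks of both siCtrl libraries and of neither siLSD1 library. Of this length, 41.2% lay beyond the low-coordinate siLSD1 peak end, 50% beyond the high-coordinate one and 8.80% between siLSD1 peaks. In 274 regions (66.7%, exact 95% binomial interval 61.9 to 71.2%) at least 80% of it was at 1 end, the low-coordinate end in 128 and the high-coordinate end in 146. In 96 regions (23.4%, 19.4 to 27.7%) each end had at least 20%, and in 28 (6.81%, 4.57 to 9.70%) at least 50% lay inside. Widened regions, defined by the mirrored rule, had 63.4% with the added length at 1 end (61.1 to 65.5%), so the intervals overlap. Such intervals, here and below, cover counting error only. The large share at the ends is partly set by its definition. Where each siLSD1 library has 1 peak, bases can count as inside only if those peaks leave a gap between them. In 310 narrowed regions (75.4%) every library had 1 peak.

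Few narrowed regions held a whole siCtrl peak without a siLSD1 counterpart, which follows in part from how regions were built. A siCtrl peak that no siLSD1 peak overlapped joined such a region only where a peak of the other siCtrl library linked it. Elsewhere it fell in a separate region. At least 1 siCtrl library had such a peak in 30 narrowed regions (7.30%). In 5 regions (1.22%) each siCtrl library had a peak that no siLSD1 peak overlapped. Besides 15q25.3 these lay in 2q23.3 at chr2:152587652-152591706, in 2q32.1 at chr2:187557522-187564913, in 7q22.1 at chr7:101028959-101032279 and in 7q31.2 at chr7:116501681-116505355, and this count was looked at after the values were seen. Among widened regions the mirrored shares were 10.1% for a peak of at least 1 siLSD1 library and 1.12% for peaks of both. The number of peaks did not change in most narrowed regions: 310 of them (75.4%) had exactly 1 peak in every library, as did 76.3% of common regions. Both siLSD1 libraries had more peaks than both siCtrl libraries in 5 regions and fewer in 10.

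**Figure D3:**
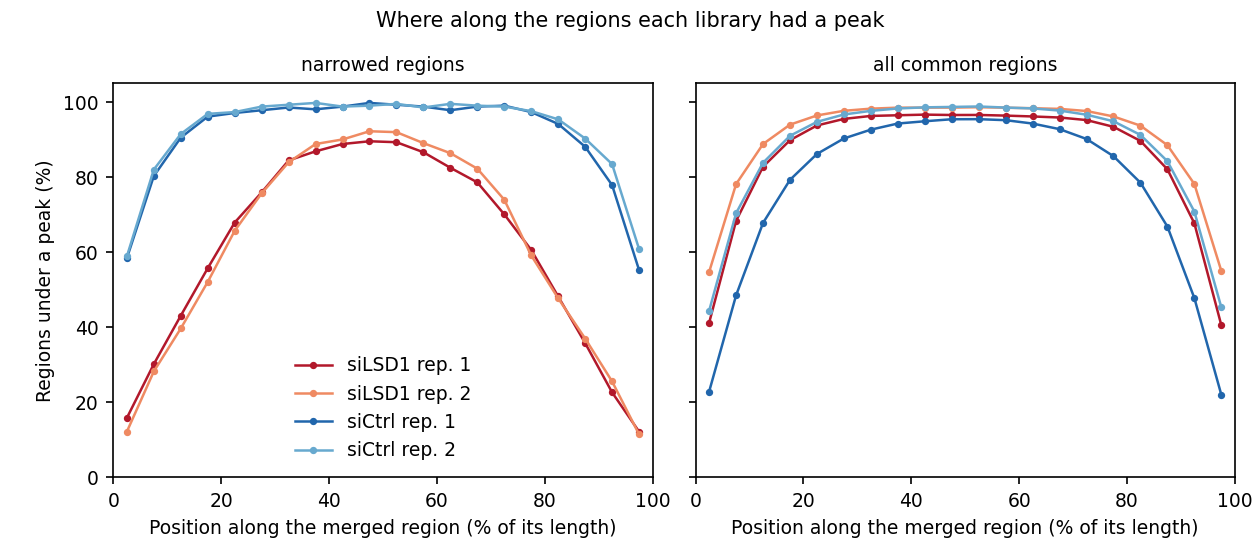
The share of regions under a peak (%) is plotted against the position along the merged region (% of its length) for each library, for narrowed regions (left) and all common regions (right). In narrowed regions both siLSD1 libraries are at 89.3 to 92.2% near the centre and at 11.4 to 15.8% at the outermost positions, against 99.0 to 99.8% and 55.2 to 60.8% in the siCtrl libraries. The outer part follows from the rule.

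The narrowed regions were weaker than other common regions in every list. Their score percentile within a list had a median of 49.8 in siLSD1 replicate 1 and 46.7 in siLSD1 replicate 2, against 52.2 in siCtrl replicate 1 and 57.8 in siCtrl replicate 2. For common regions as a whole it was 72.0 and 72.2 in the siLSD1 lists, against 58.6 and 69.7 in the siCtrl lists. Score and breadth come from the same peaks, so this is a description. In 141 narrowed regions (34.3%) each siLSD1 percentile was below each siCtrl percentile, in 53 (12.9%) each was above, and the order was mixed in the rest. Ranks in lists of different lengths do not show a change, and the same shares over all common regions are not given here. Nothing is therefore read from these counts. When common regions were ranked by their mean percentile over the 4 lists, 169 narrowed regions fell in the lowest 20% (3.17% of the regions there) and 39 in the highest 20% (0.732%). Widened regions also made up more of the lowest 20%, with 11.4% there and 4.61% of the highest 20%. By mean covered length, narrowed regions were 1.93%, 1.73%, 1.44%, 1.01% and 1.59% of common regions in steps of 20% taken shortest to broadest.

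The count of narrowed regions was set beside the mirrored count and the other ways to split 4 libraries into pairs. Widened regions, in which the higher siCtrl length was at most 0.85 times the lower siLSD1 length, numbered 1880 (7.05% of common regions), so narrowed regions were 0.219 times as many. Replicates 2 were narrower than replicates 1 by the same rule in 96 regions (0.36%) and wider in 1649 (6.19%). In the last split, the pair of siLSD1 replicate 1 and siCtrl replicate 2 was narrower than the pair of siLSD1 replicate 2 and siCtrl replicate 1 in 101 regions (0.379%) and wider in 348 (1.31%). In each split the pair without siCtrl replicate 1 was the wider more often. Among the 3 counts that go against this direction, that of the siRNA split was the highest with all peaks. It stayed the highest under each of the next 3 settings. With equal numbers of peaks per list the 3 counts were 340, 59 and 79 among 22787 common regions, and with lists of equal covered length 379, 50 and 76 among 18772. When each library's lengths were divided by its mean over common regions, they were 831, 340 and 190. With only 3 possible splits no test was run. Left out in turn, each library moved the count: leaving out siLSD1 replicate 1 gave 1128 narrowed and 4395 widened regions, and leaving out siLSD1 replicate 2 gave 1857 narrowed and 3048 widened ones. The omission of siCtrl replicate 1 gave 2162 narrowed and 4140 widened regions, and that of siCtrl replicate 2 gave 793 narrowed and 7487 widened ones. With 1 library on a side the rule is easier to meet, and widened regions outnumbered narrowed ones in all 4 cases.

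**Figure D4:**
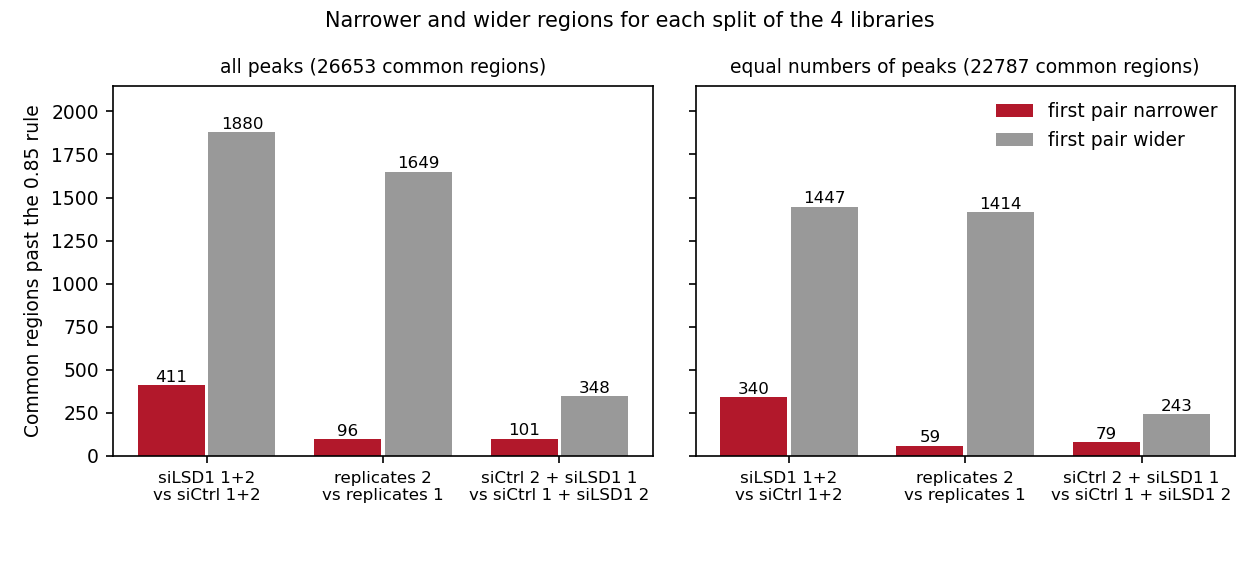
Bars give the number of common regions in which the first-named pair of libraries was narrower (red) or wider (grey) than the other pair by the 0.85 rule, for each of the 3 splits, with all peaks (left) and with equal numbers of peaks (right). The red bar of the siRNA split, 411 regions with all peaks, stands above those of the other splits at 96 and 101.

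Without the threshold, the siLSD1 lengths lay wholly below the siCtrl lengths in 2564 common regions (9.62%) and wholly above in 8077 (30.3%). The same counts were 1195 (4.48%) and 9302 (34.9%) for replicates 2 against replicates 1, and 1639 (6.15%) and 3806 (14.3%) for the last split. A fit of log2 covered length over all 26653 common regions with limma called 0 regions lower and 0 higher at a Benjamini-Hochberg adjusted p under 0.05, the smallest adjusted p being 0.171. At an unadjusted p under 0.05 limma had 422 lower (1.58%) and 1896 higher. As the rule used the same contrast, nothing is read from the 355 of 411 narrowed regions among those 422. When changes were planted in simulated lengths, the spread estimated for each region was taken as its true spread. There limma called 0 of 100 regions with a log2 change of -0.5 and 0 of 100 with -2. Estimates from 2 libraries per group are uneven, so detection in the real lengths may differ from that in the simulation. The 0 calls therefore do not show that single regions were unchanged.

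The common regions beside the narrowed ones were compared next. For each narrowed region the nearest common region within 50 kb that did not itself meet the rule was taken, which gave 321 different regions, none of them narrowed. The rule had thus been applied to them too, and had kept out those with the smallest ratios. They made up 1.28% and 1.23% of the total covered length of common regions in siLSD1 replicates 1 and 2, against 1.34% and 1.31% in siCtrl replicates 1 and 2. The mean share was 1.25 ± 0.0345% after siLSD1 and 1.33 ± 0.0196% after siCtrl (SD, n = 2 each), a ratio of 0.943. Both siLSD1 libraries lay below both siCtrl libraries, and the two-sided exact permutation p was 0.333, the smallest that 2 libraries against 2 allow. A p here measures only the spread between these libraries. Of these neighbours, 65 (20.2%) had siLSD1 lengths wholly below their siCtrl lengths, against 9.62% of all common regions, the narrowed ones included, and 64 (19.9%) wholly above, against 30.3%. In base pairs, their mean covered length was 2901 and 2951 bp after siLSD1 and 2735 and 3041 bp after siCtrl, so that the groups overlapped before the lengths were set against the library totals.

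Sites where the mark was lost were also more frequent near narrowed regions. A region with a peak in both siCtrl libraries and in neither siLSD1 library lay within 50 kb of 37 narrowed regions (9.002%, exact 95% interval 6.42 to 12.2%), against 66 widened regions (3.51%, 2.72 to 4.45%) and 4.07% of all common regions (3.83 to 4.31%). Within 5 kb these shares were 2.19% (1.01 to 4.12%), 0.319% and 0.555%. Gained regions, which had peaks in both siLSD1 libraries and in neither siCtrl library, lay within 50 kb of 85 narrowed regions (20.7%, 16.9 to 24.9%), against 37.9% of widened and 25.04% of common regions. They lay within 5 kb of 6 narrowed regions (1.46%, 0.538 to 3.15%), against 8.35% of widened and 4.12% of common regions. Lost and gained regions come from the same lists and the same contrast that chose the narrowed regions. A siCtrl peak beside a narrowed region that no siLSD1 peak overlapped could itself count as lost. These shares are therefore a description, and no enrichment test was run on them.

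A lost region lay within 5 kb of 9 narrowed regions, a set picked out after the values were seen. In 18q21.1, chr18:47371768-47377057 had 2803 and 2956 bp after siLSD1, against 5125 and 5176 bp after siCtrl. All 2215 bp missing there lay at the low-coordinate end, and the nearest lost region was 414 bp away. In 15q14, chr15:35085706-35089278 had 2223 and 1871 bp after siLSD1, against 3395 and 3573 bp after siCtrl, and a lost region lay 11 bp away. In 1p12, chr1:118663313-118667687 had 2740 and 2965 bp after siLSD1, against 4013 and 4375 bp after siCtrl, with a lost region at 3160 bp.

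Narrowed regions were scattered over the genome. They lay in 259 of the 791 cytobands that held a common region, with at most 8 in 1 band. Light-staining bands, which are rich in genes, held 59.4% of them (54.4 to 64.2%) and 60.3% of common regions. Within 5 Mb of a chromosome end lay 15.3% of narrowed regions (11.98 to 19.2%) and 12.8% of common regions. Another narrowed region lay within 50 kb of 27 of them (6.57%, 4.37 to 9.41%), while 3.59% of all common regions had a narrowed region other than themselves within that distance. There were 23 groups of narrowed regions spaced by at most 100 kb, of which 3 held 3 regions and the others 2. Those of 3 lay in 7q22.1 from chr7:101003741 to 101131200, in 17q25.3 from chr17:79259672 to 79404301 and in 19p13.2 from chr19:13055741 to 13108329. In the 17q25.3 group, chr17:79300538-79306124 had 2720 and 2779 bp after siLSD1, against 5534 and 4745 bp after siCtrl.

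By chromosome the share of common regions that were narrowed ranged from 0.513% on chromosome 13 (2 of 390) to 2.59% on chromosome 10 (32 of 1236, exact 95% interval 1.78 to 3.64%). Chromosome 9 was next, with 30 of 1197 (2.51%, 1.70 to 3.56%). The lower bounds of these 2 chromosomes were the only ones above the 1.54% of all common regions. Chromosome X was the only chromosome with more narrowed than widened regions, 10 (1.80%, 0.867 to 3.29%) against 4 (0.721%, 0.197 to 1.83%). The narrowed share on X was close to that elsewhere (1.54%), whereas the widened share was far below the 7.19% elsewhere. When each list was held to equal numbers of peaks, X had 16 narrowed regions of 381 (4.20% against 1.45% elsewhere) and 3 widened ones. Without siLSD1 replicate 1 chromosome X had 31 narrowed and 52 widened regions, and without siCtrl replicate 2 it had 15 and 170, so that the order turned. Without siCtrl replicate 2 its shares were close to those elsewhere, 2.62% against 2.86% narrowed and 29.7% against 26.9% widened. Without siLSD1 replicate 2 chromosome X had 96 narrowed (16.99% against 6.49% elsewhere) and 11 widened regions. Without siCtrl replicate 1 it had 149 (21.35% against 6.13% elsewhere) and 15. In the split by replicate number chromosome X held 142 regions wider in replicates 2 and 0 wider in replicates 1. In the last split, the pair of siLSD1 replicate 1 and siCtrl replicate 2 was wider in 24 regions of X (4.32% against 1.24% elsewhere). It was narrower in 2. The libraries thus differed on this chromosome by replicate number, and the difference by siRNA changed with the library left out. What moves the X count was not tested.

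**Figure D5:**
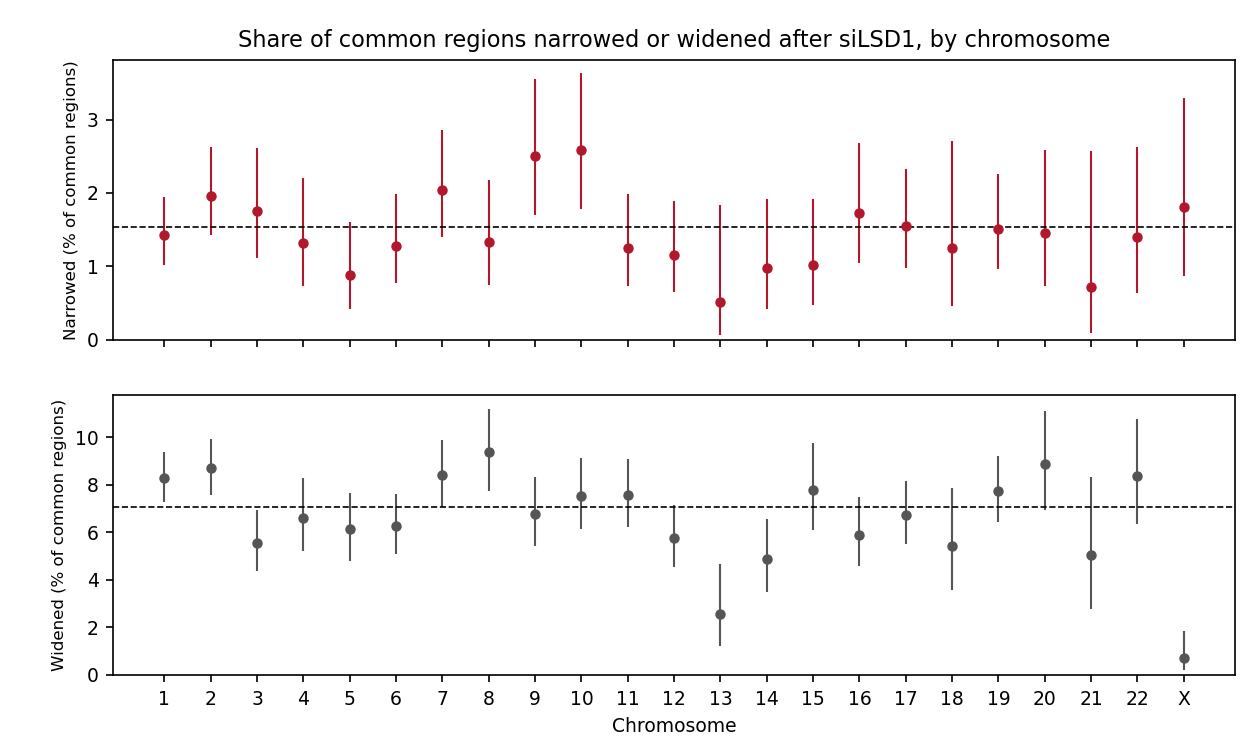
The share of common regions that were narrowed (top) or widened (bottom) after siLSD1 is plotted by chromosome, with exact 95% binomial intervals and dashed lines at the shares over all chromosomes, 1.54% and 7.05%. Chromosomes 9 and 10 lie highest for narrowed regions, and chromosome X, at 0.721%, lies lowest for widened ones.

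The 10 regions of chromosome X had ratios from 0.522 to 0.841. In Xp22.31, chrX:7894487-7896484 had 1002 and 903 bp after siLSD1, against 1925 and 1921 bp after siCtrl, with 824 bp missing at the high-coordinate end. This region was no longer common with equal numbers of peaks per list. In Xp11.23, chrX:47371689-47373907 had 834 and 835 bp after siLSD1, against 1563 and 2219 bp after siCtrl. In Xq28, chrX:152756152-152758783 had 1672 and 1602 bp after siLSD1, against 2535 and 2505 bp after siCtrl. A pair of narrowed regions in Xp22.2 lay between chrX:10584260 and 10603455.

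A list of 22 bands, most of them known for genes of muscle, adhesion, development, growth, immunity or histones, was chosen with earlier results of these data known. They held 25 narrowed regions among 1596 common ones (1.57%), near the 1.54% of all common regions. In 12 of the 22 there was none. Among them, 7p15.2 with the HOXA genes had 0 of 34 common regions narrowed, which allows a share of up to 8.82%. Band 11p15.1 with the myogenic factor gene MYOD1 had 0 of 58 (up to 5.17%). The protocadherin band 5q31.3 had 0 of 73 (up to 4.11%) and 2q36.1 with PAX3 0 of 31 (up to 9.68%). Band 1p36.12 with KDM1A itself had 0 of 71 (up to 4.23%). These limits are approximate and lie below the upper bounds that the exact intervals used elsewhere would give. Each is above 1.54%, so none of these bands is set apart from common regions as a whole. Band 1q32.1, which carries MYOG and many other genes, had 8 of 157 common regions narrowed (5.10%) and 9 widened. These 8 had ratios from 0.672 to 0.841 and drops from 334 to 1260 bp. Their peaks ranked low, with median score percentiles of 12.2 and 27.5 in siLSD1 replicates 1 and 2 (all narrowed regions: 49.8 and 46.7). In siCtrl replicates 1 and 2 the medians were 40.9 and 41.4 (all narrowed regions: 52.2 and 57.8). The broadest of the 8, chr1:204251404-204259098, had 5048 and 5807 bp after siLSD1, against 7636 and 7067 bp after siCtrl, with 833 bp missing inside. In 14q32.2, the band of the imprinted DLK1 and MEG3 genes, chr14:101291318-101295209 had 2474 and 2790 bp after siLSD1, against 3366 and 3665 bp after siCtrl. Whether these regions lie in the genes named was not analysed here.

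The pooled lists, for which the submitters joined the replicates, showed smaller differences in the same regions. Counted within the region's limits, the pooled siLSD1 list covered a median of 2294 bp and the pooled siCtrl list 2782 bp. The median ratio of the authors' pooled lists was 0.825 in narrowed regions and 1.02 over common regions. It was under 1 in 378 of 411 narrowed regions (91.97%), against 31.09% of common regions. It was at most 0.85 in 232 narrowed regions (56.4%), against 3.33% of common regions. The pooled siLSD1 list covered more than either siLSD1 library in 394 narrowed regions (95.9%), against 70.5% of common regions, while the pooled siCtrl list exceeded both of its libraries in 272 (66.2%), against 75.7%. Widened regions showed the mirror image, where the pooled siCtrl list exceeded both siCtrl libraries in 93.9% and the pooled siLSD1 list both of its own in 61.1%. At 1q31.2 the pooled siLSD1 list covered 8360 bp, about 4 kb more than either siLSD1 library, and the pooled siCtrl list 9829 bp. At 9q21.33, chr9:89159583-89168066, the pooled lists covered 6771 bp after siLSD1 and 8484 bp after siCtrl. At 15q25.3 they covered 6847 bp after siLSD1 and 8138 bp after siCtrl, and at 1q22 6682 and 7448 bp. In both of these regions the pooled siLSD1 list had 2 peaks, where each siLSD1 library had 1. At 2p25.1 the pooled values of 2188 bp after siLSD1 and 4552 bp after siCtrl kept the difference. The pooled lists rest on the same libraries and are not a second measurement.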

How the data were processed

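H3K4me2 was profiled in 4 ChIP libraries of RD cells, 2 after siLSD1 and 2 after siCtrl. Reads were aligned with Bowtie to hg19, per the submitters' processing notes, and the deposited peak names point to MACS. Its version and settings, and the way replicates were pooled, were not stated in the labels or files used here. The deposited score of each peak is the authors' own value, of unstated unit, and was used only to rank and filter peaks within a list. Each library's list came with a list of the pooled replicates per siRNA. Depth is unknown, so breadth may also reflect how deeply a library was sequenced.

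Peaks were merged and covered base pairs counted with pandas 2.3.3 and numpy 2.4.6. Chromosome Y and contigs were left out. Exact tests and Clopper-Pearson intervals used scipy 1.17.1, and bands came from circlize 0.4.16. Log2 covered length was fitted over all common regions with limma 3.58.1 (trend, robust, Benjamini-Hochberg adjustment), checked on simulated data. Alternatives covered thresholds, peak sets, merging, scaling, pairing and each library left out. The regions and lists were chosen with earlier results of these data known. Named regions were the 10 of largest drop, 10 of smallest ratio, 6 of highest lowest-score percentile, 6 broadest in siCtrl, and 3 each side of the threshold. Any other region named was chosen after its values were seen. Widened regions named by the same rule are given in the closing section.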

Additional observations from a re-analysis of the deposited data

How the results depend on the processing

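The counts of narrowed and widened regions (411 and 1880, ratio 0.219) moved with the setting, while widened regions stayed the more numerous in every setting tried. At a threshold of 0.75 there were 150 and 765, with 26 and 583 for replicates 2 against replicates 1 and 26 and 97 for the last split. At 0.9 there were 701 and 3043, with 211 and 2958, and 238 and 716. The upper 50% of peaks by score gave 209 and 642, and lists of equal covered length 379 and 1004 (ratio 0.378). Lengths divided by each library's mean gave 831 narrowed regions (ratio 0.662), with 340 and 802 for the replicate split and 190 narrower for the last. Equal numbers of peaks left 59 narrower in the replicate split. Leaving out 1 library gave 793 to 2162 narrowed and 3048 to 7487 widened regions (ratio 0.106 to 0.609). The replicate block, with each siLSD1 library set against the siCtrl library of its number, gave 673 and 2958. Same-numbered libraries correlated at r = 0.188 over regions, but with 2 pairs the numbers were not taken as pairing. A crossed pairing, added after seeing the data, gave 597 narrowed regions. The cause of these moves was not tested.

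Of the 411 regions, 222 (54.0%) overlapped a narrowed region with equal numbers of peaks, 158 (38.4%) with equal covered length, 121 (29.4%) in the upper 50% by score and 396 (96.4%) after scaling. Of the 27 named ones, 22 kept the rule with equal numbers of peaks, 4 were no longer common, and 2q22.1 turned to a ratio of 1.123. With gaps of up to 1000 bp merged 25 kept the rule, and 19p13.3 (0.912) and 10q24.32 (0.855) passed over the threshold. Among those that kept it, 1q22 rose from 0.5545 to 0.827 and 1q31.2 from 0.4275 to 0.618. The share of lost length at the ends, which is partly set by its definition, was 91.2%, and 95.7% with equal numbers of peaks. The neighbours' ratio of 0.943 ranged from 0.925 to 0.961 without 1 library, and limma called 0 regions under each alternative, with smallest adjusted p from 0.0646 to 0.804. Unknown depth limits every length given.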

Other observations

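The widened regions of largest gain gained more than any narrowed region lost. In 2q33.3, chr2:206559665-206573597 had 13821 and 13515 bp under peaks after siLSD1, against 1586 and 4862 bp after siCtrl. The pooled lists differed from the libraries there, with 0 bp after siLSD1 and 3159 bp after siCtrl. In 10q26.13, chr10:123939863-123954749 had 12971 and 13858 bp after siLSD1, against 5925 and 6702 bp after siCtrl. In 2p11.2, chr2:85631789-85641854 had 9189 and 9475 bp after siLSD1, against 3397 and 3403 bp after siCtrl.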
